A study of Mus musculus with 28 samples.

Results

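The unfolded protein response genes Hspa5, Hsp90b1, Xbp1, Atf4, Atf6, Calr, Pdia4, Herpud1, Dnajb9 and Trib3 were followed through the conversion of Pre-B cells into macrophage-like cells. These 10 genes were chosen by name, as known endoplasmic reticulum (ER) stress and chaperone genes, from the 55450 genes of the TPM table, and each matched 1 row. Earlier results of these data were known when they and the other gene lists below were chosen. TPM give the abundance of a transcript, corrected for its length, as a part of all transcripts in the library. All 10 passed the filter of a mean of at least 0.1 TPM that left 16412 genes for testing. The cells were C10, a mouse Pre-B line derived from HAFTL cells. All groups, the 0h controls included, carried the C/EBPα-ER transgene, a C/EBPα fused to the estrogen receptor, which β-estradiol releases into the nucleus. The 1h, 12h and 48h cells received 100 nM β-estradiol with 10 nM IL-3 and with CSF-1, and the agents were given together, so that their effects cannot be told apart. RNA-seq was made from 3 biological replicates at each of 0h, 1h, 12h and 48h, 12 libraries of 1 cell line, and Promoter Capture Hi-C (PCHi-C) was given as 1 merged list per time point. What separated the replicates is not given in the sources used here, so the p-values measure the spread between these libraries.

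The ER folds secreted and membrane proteins. When unfolded proteins build up, the sensors IRE1 (Ern1), PERK (Eif2ak3) and ATF6 start the unfolded protein response. IRE1 splices Xbp1 RNA, PERK favours translation of ATF4, and ATF6 is cut to release a transcription factor, and together these raise chaperones, folding enzymes and the machinery that removes misfolded proteins from the ER. Secretory cells such as plasma cells depend on the pathway, and ATF4 is also known for amino acid synthesis and transport genes. TPM record total RNA, so neither Xbp1 splicing nor the protein steps of Atf4 and Atf6 were measured.

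Promoters are shown for the 4 genes whose window held an ER stress response element. Of these, Hspa5, Hsp90b1 and Calr rose at 12h and fell from 12h to 48h, as described below, whereas Herpud1 was not called at 12h. Pdia4, without a match, and Xbp1, with only a C/EBP match, also rose at 12h and fell from 12h to 48h. A link between the elements and the time courses was not tested. The elements searched, on both strands, were ERSE (CCAAT and CCACG with 9 bases of any kind between them), ERSE-II (ATTGG and CCACG with 1 base between them), the XBP1 element UPRE (TGACGTGG), the ATF4 element CARE (TGATGNAA) and a C/EBP site (TTGCNNAA). ERSE and ERSE-II share the letters CCACG, and no match in the members overlapped another. The windows were the 250 bases before and 50 after the RefSeq start (GRCm38.p6), of which 9 of the 10 genes had 1 each and Atf6 had none. Below, the 250 bases before the start are given 5′ to 3′ along the gene, with matches in capitals. Hspa5 lies at chr2:34771840-34772089 (+), Hsp90b1 at chr10:86705445-86705694 (-), Calr at chr8:84846932-84847181 (-) and Herpud1 at chr8:94386179-94386428 (+).
Hspa5: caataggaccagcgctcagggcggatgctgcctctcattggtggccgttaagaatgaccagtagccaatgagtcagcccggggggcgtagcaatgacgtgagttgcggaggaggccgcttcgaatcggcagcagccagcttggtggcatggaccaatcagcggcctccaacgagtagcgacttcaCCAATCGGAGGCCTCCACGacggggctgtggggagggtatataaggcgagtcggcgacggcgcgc
Hsp90b1: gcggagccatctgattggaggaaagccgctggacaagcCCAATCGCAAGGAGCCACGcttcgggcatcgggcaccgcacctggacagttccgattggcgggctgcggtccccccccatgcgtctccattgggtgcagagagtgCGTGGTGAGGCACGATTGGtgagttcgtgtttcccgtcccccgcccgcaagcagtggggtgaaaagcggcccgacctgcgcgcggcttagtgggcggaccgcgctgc
Calr: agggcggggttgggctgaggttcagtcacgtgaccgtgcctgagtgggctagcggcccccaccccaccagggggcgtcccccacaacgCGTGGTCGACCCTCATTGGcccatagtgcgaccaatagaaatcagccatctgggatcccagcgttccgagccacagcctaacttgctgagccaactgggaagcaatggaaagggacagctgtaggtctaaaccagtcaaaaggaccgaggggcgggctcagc
Herpud1: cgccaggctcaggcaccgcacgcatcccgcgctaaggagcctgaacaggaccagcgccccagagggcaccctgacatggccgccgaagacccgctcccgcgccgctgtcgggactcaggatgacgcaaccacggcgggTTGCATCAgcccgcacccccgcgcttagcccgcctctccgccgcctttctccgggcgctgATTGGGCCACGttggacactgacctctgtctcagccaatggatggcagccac
The capitals are an ERSE in Hspa5, an ERSE on each strand in Hsp90b1, an ERSE on the opposite strand in Calr, and in Herpud1 a CARE on the opposite strand followed by an ERSE-II. Over all 32851 windows, 0.119% held an ERSE, 0.0365% an ERSE-II, 0.676% a UPRE, 3.97% a CARE and 10.8% a C/EBP site. Xbp1 held a C/EBP match and Trib3 a CARE match just after its start, while Atf4, Pdia4 and Dnajb9 held no match to these letters. A match describes the letters of the window and was not tied to any binding measurement.

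TPM hold no record of sequencing depth, and the depths that the study lists were not used here. CT010467.1 and AY036118, annotated at the same ribosomal RNA locus, took 70.3% to 82.9% of the TPM of a library, which compresses the rest to a varying degree. The mean median-of-ratios size factor of the 3 libraries was 0.930 (0h), 1.47 (1h), 1.18 (12h) and 0.699 (48h). On TPM the genes tested had a median log2 change against 0h of 0.59 (1h), 0.34 (12h) and -0.18 (48h). Changes below are log2 values on TPM, with the value after median-of-ratios scaling beside them, and a gene is said to have risen or fallen only where it passed an adjusted p of 0.05 on both scales. The test was limma on log2(value + 0.1) over all 12 libraries, with Benjamini-Hochberg adjustment over the 16412 genes, and every fold change is on that log2 scale. The 10 pre-B markers summed to 301 to 340 TPM at 0h and 29.9 to 41.9 TPM at 48h, with Rag1 at 0 in all 48h libraries. The 10 macrophage markers summed to 9.06 to 9.57 TPM at 0h and 750 to 872 TPM at 48h, with Cd14, Msr1 and Adgre1 at 0 in all 0h libraries. Mmp12 alone gave 491 of the mean of 808 TPM at 48h, and Adgre1 was still at 0 in all but 1 of the 48h libraries. As these are bulk samples, fewer cells of a type and less RNA per cell cannot be told apart.

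At 0h, Atf4 RNA was the most abundant of the 10, at 45.7 ± 4.22 TPM (SD, n = 3), and Dnajb9 the least, at 1.13 ± 0.173 TPM (SD, n = 3). Between them came Calr at 38.2 TPM, Hspa5 at 37.5, Hsp90b1 at 25.5, Herpud1 at 9.83, Pdia4 at 9.12, Trib3 at 4.88, Xbp1 at 2.67 and Atf6 at 2.15 TPM on average. The libraries of Calr and Hspa5 overlapped, as did those of Herpud1 and Pdia4 and those of Xbp1 and Atf6, so the order within these pairs is not resolved. At 12h Hspa5, Hsp90b1 and Calr headed the order, with overlapping libraries and means of 86.4, 81.3 and 80.7 TPM. At 48h Trib3 was the lowest, at 0.33 ± 0.135 TPM (SD, n = 3).

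**Figure D1:**
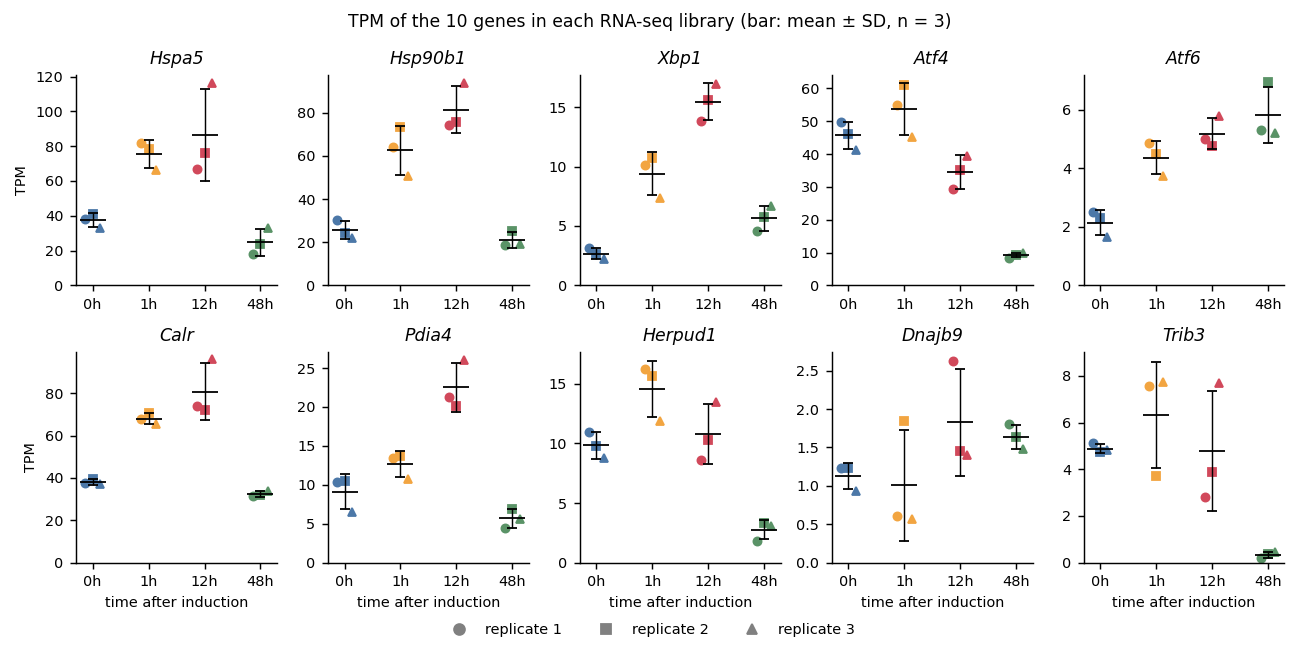
TPM (y axis, linear from 0) of each of the 10 genes against time after induction (x axis), with 1 point per library and a bar for the mean ± SD of the 3 replicates. Hspa5, Hsp90b1, Calr, Pdia4, Xbp1 and Dnajb9 have their highest mean at 12h. Hspa5, Hsp90b1, Calr, Pdia4, Atf4, Herpud1 and Trib3 have their lowest mean at 48h.

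The ER chaperones Hspa5, Hsp90b1 and Calr and the folding enzyme Pdia4 rose by 12h and came down again by 48h. The co-chaperone Dnajb9 was not called. Hspa5, Hsp90b1, Calr and Pdia4 were all higher at 12h than at 0h on both scales, by 2.12 to 3.19 times on TPM means and 1.66 to 2.53 times after scaling. From 12h to 48h all of them fell on both scales, to means of 0.252 to 0.402 of the 12h level on TPM and of 0.423 to 0.681 after scaling.

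Hspa5 (chr2:34771970-34777547, ENSMUSG00000026864) encodes BiP, the ER member of the Hsp70 family, which also holds the stress sensors inactive. It was at 38.2, 41.2 and 33.2 TPM in replicates 1, 2 and 3 at 0h, at 82.0, 78.4 and 66.3 TPM at 1h, at 67.1, 75.9 and 116 TPM at 12h and at 17.8, 23.6 and 32.9 TPM at 48h. All 1h and 12h libraries were above all 0h libraries, and all 48h libraries were below them. The log2 change at 12h was 1.17 ± 0.25 (SE, adjusted p = 0.00456), and 0.83 ± 0.17 after scaling (adjusted p = 0.00359). At 1h it was 1.01 on TPM (adjusted p = 0.0139) and 0.35 after scaling (adjusted p = 0.234), so the gene was called on TPM only. The 48h difference from 0h was -0.64 ± 0.25 on TPM (adjusted p = 0.0589) and -0.23 after scaling (adjusted p = 0.31), where the libraries overlapped. It passed the threshold on TPM without 48h replicate 3 (-0.86, adjusted p = 0.0137), without 12h replicate 3 (adjusted p = 0.0335) and with a minimum mean of 1 TPM (adjusted p = 0.046).

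Hsp90b1 (chr10:86690209-86705509, ENSMUSG00000020048), the ER member of the Hsp90 family, folds among others Toll-like receptors and integrins. It was at 30.3, 24.3 and 22.0 TPM at 0h, 63.9, 73.2 and 50.5 TPM at 1h, 74.3, 75.8 and 93.9 TPM at 12h and 18.6, 25.2 and 19.2 TPM at 48h. The 1h and 12h libraries lay above every 0h library and the 48h libraries overlapped them. It rose at 1h by 1.29 ± 0.20 in log2 (adjusted p = 0.00114), or 0.63 after scaling (adjusted p = 0.0139), and at 12h by 1.67 ± 0.20 (adjusted p = 7.98e-05), or 1.34 after scaling. The 1h call was lost when TPM were rescaled without the 20 most abundant genes (adjusted p = 0.0663). The gene overlaps the antisense pseudogene 1810014B01Rik, and the library kit does not mark strand, so reads of the pair cannot be told apart.

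Calr (chr8:84841850-84846934, ENSMUSG00000003814) encodes calreticulin, a calcium-binding chaperone of glycoproteins. It was at 37.8, 39.6 and 37.1 TPM at 0h, 68.0, 70.6 and 65.4 TPM at 1h, 73.9, 72.0 and 96.4 TPM at 12h and 31.3, 32.1 and 33.9 TPM at 48h. It was tightly grouped at every time except 12h, where replicate 3 stood above the others. The log2 change was 1.07 ± 0.14 at 12h (adjusted p = 0.000205), and 0.73 after scaling. At 1h it was 0.83 on TPM (adjusted p = 0.00224) and 0.17 after scaling (adjusted p = 0.384). At 48h the sign depended on the scale, with -0.23 on TPM and 0.18 after scaling, neither past the threshold.

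Pdia4 (chr6:47796141-47813430, ENSMUSG00000025823), a protein disulfide isomerase of the ER, was at 10.4, 10.5 and 6.52 TPM at 0h, 13.4, 13.7 and 10.8 TPM at 1h, 21.3, 20.2 and 26.0 TPM at 12h and 4.48, 6.94 and 5.60 TPM at 48h. Every 12h library was above every library of the other times. It rose at 12h against 0h by 1.32 ± 0.23 in log2 (adjusted p = 0.00124) and against 1h by 0.83 ± 0.23 (adjusted p = 0.0235), or 0.98 and 1.15 after scaling. The step from 1h lost its call on TPM without 1h replicate 1 (adjusted p = 0.0527), 1h replicate 3 (0.0769), 12h replicate 1 (0.054) or 12h replicate 3 (0.0707). At 48h it was lower than at 0h on TPM, by -0.67 (adjusted p = 0.0337), but not after scaling (-0.26, adjusted p = 0.22).

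On TPM, replicate 3 was the highest of the 12h libraries for every member except Dnajb9, and after scaling for Hspa5, Calr, Herpud1 and Trib3. That library also had the lowest share of TPM in the ribosomal locus genes at 12h, 72.8% against 79.5% and 78.1%, and its part in the values was not tested. Without it, Hspa5, Hsp90b1, Calr, Pdia4, Xbp1 and Atf6 were still the 6 members called higher at 12h than at 0h.

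Among the transcription factors, Xbp1 and Atf6 rose and Atf4 fell. Xbp1 (chr11:5520659-5525893, ENSMUSG00000020484), the factor that IRE1 activates and that plasma cells require, was at 3.13, 2.66 and 2.23 TPM at 0h, 10.1, 10.7 and 7.32 TPM at 1h, 13.8, 15.6 and 16.9 TPM at 12h and 4.54, 5.74 and 6.67 TPM at 48h. No libraries of different times overlapped. It rose at 1h by 1.77 ± 0.21 in log2 (adjusted p = 0.00024), at 12h by 2.50 ± 0.21 (adjusted p = 6.64e-06) and at 48h by 1.05 ± 0.21 (adjusted p = 0.00162), and after scaling by 1.12, 2.16 and 1.46. From 12h to 48h it fell by 1.45 on the log2 scale (adjusted p = 0.000317), with -0.71 after scaling (adjusted p = 0.00311). The step from 1h to 12h, 0.73 (adjusted p = 0.0283), lost its call when 1h replicate 3 (adjusted p = 0.0848), 12h replicate 3 (0.0727), 12h replicate 2 (0.076) or 1h replicate 1 (0.0515) was left out, and stood at 1.05 after scaling (adjusted p = 0.000252).

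Atf6 (chr1:170704674-170867771, ENSMUSG00000026663), the membrane-bound sensor, was at 2.50, 2.29 and 1.65 TPM at 0h, 4.85, 4.49 and 3.74 TPM at 1h, 5.0, 4.76 and 5.78 TPM at 12h and 5.32, 6.94 and 5.22 TPM at 48h. The 0h libraries were below all others, and the 12h and 48h libraries overlapped. It rose at 12h by 1.25 ± 0.20 in log2 (adjusted p = 0.000864) and at 48h by 1.41 ± 0.20 (adjusted p = 0.000159), or 0.92 and 1.82 after scaling. It was the member without a fall from 12h to 48h on either scale besides Dnajb9, with 0.16 on TPM (adjusted p = 0.585) and 0.90 after scaling (adjusted p = 0.00172).

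Atf4 (chr15:80255184-80257541, ENSMUSG00000042406), the factor of the PERK branch, was at 49.7, 46.0 and 41.3 TPM at 0h, 54.8, 60.9 and 45.3 TPM at 1h, 29.3, 35.0 and 39.4 TPM at 12h and 8.44, 9.34 and 9.83 TPM at 48h. The 48h libraries were far below all others. It fell by 2.30 on the log2 scale at 48h (SE 0.17, adjusted p = 6.54e-07), with -1.89 after scaling (adjusted p = 8.38e-08). At 12h it was below 0h in every library, with -0.41 on TPM (adjusted p = 0.0871) and -0.74 after scaling (adjusted p = 0.000288). At 1h its direction turned with the scale, from 0.23 (adjusted p = 0.334) to -0.43 (adjusted p = 0.0221).

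Of the remaining members, Herpud1 and Trib3 fell at 48h, whereas Dnajb9 was not called. Herpud1 (chr8:94386438-94395377, ENSMUSG00000031770), an ER membrane protein of the degradation machinery whose promoter held the CARE and the ERSE-II above, was at 11, 9.76 and 8.74 TPM at 0h, 16.3, 15.6 and 11.9 TPM at 1h, 8.59, 10.3 and 13.5 TPM at 12h and 1.82, 3.32 and 3.11 TPM at 48h. It fell at 48h by 1.84 on the log2 scale (SE 0.25, adjusted p = 9.61e-05), with -1.44 after scaling (adjusted p = 3.35e-05). At 1h (adjusted p = 0.121) and 12h (adjusted p = 0.773) it was not called on either scale. It overlaps the antisense gene Gm15890.

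Trib3 (chr2:152337422-152344032, ENSMUSG00000032715), a pseudokinase induced by ATF4 that restrains it in turn, was at 5.12, 4.72 and 4.81 TPM at 0h, 7.57, 3.69 and 7.72 TPM at 1h, 2.79, 3.88 and 7.70 TPM at 12h and 0.18, 0.37 and 0.44 TPM at 48h. The 1h and 12h libraries straddled those of 0h, and the 48h libraries were below all others. It fell at 48h by 3.59 on the log2 scale (SE 0.39, adjusted p = 1.85e-05), to 0.0676 of the 0h mean, with -3.29 after scaling. With a pseudocount of 1 the log2 value was -2.15, since the 48h levels are low. Dnajb9 (chr12:44205559-44210326, ENSMUSG00000014905), a co-chaperone of BiP, lay between 0.57 and 2.63 TPM in all 12 libraries and was not called in any comparison on either scale.

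Counted together, 6 of the 10 members rose at 12h and none fell, where 16.0% of all genes tested rose and 7.82% fell on both scales. At 1h 2 rose and none fell, against 5.42% and 1.37% of all genes. On TPM alone 5 were called higher at 1h, against 24.1% of all genes. After scaling alone 2 were higher, against 5.42%, and 1, Atf4, was lower, against 4.92%, so the count at 1h turned on the scaling. At 48h against 0h 2 rose and 3 fell, against 15.9% and 21.9%. From 1h to 12h 2 rose (background 6.92%) and none fell (8.77%), and on TPM alone 2 were called higher (6.98%) and 1 lower (15.0%). From 12h to 48h 8 fell and none rose, against 11.9% and 4.06%, and on TPM alone the 8 stood against 31.7% of all genes. The comparisons with 0h share the same 3 control libraries. The median log2 change of the 10 was 1.12 at 12h on TPM and 0.78 after scaling, where all genes had 0.34 and 0.07.

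**Figure D2:**
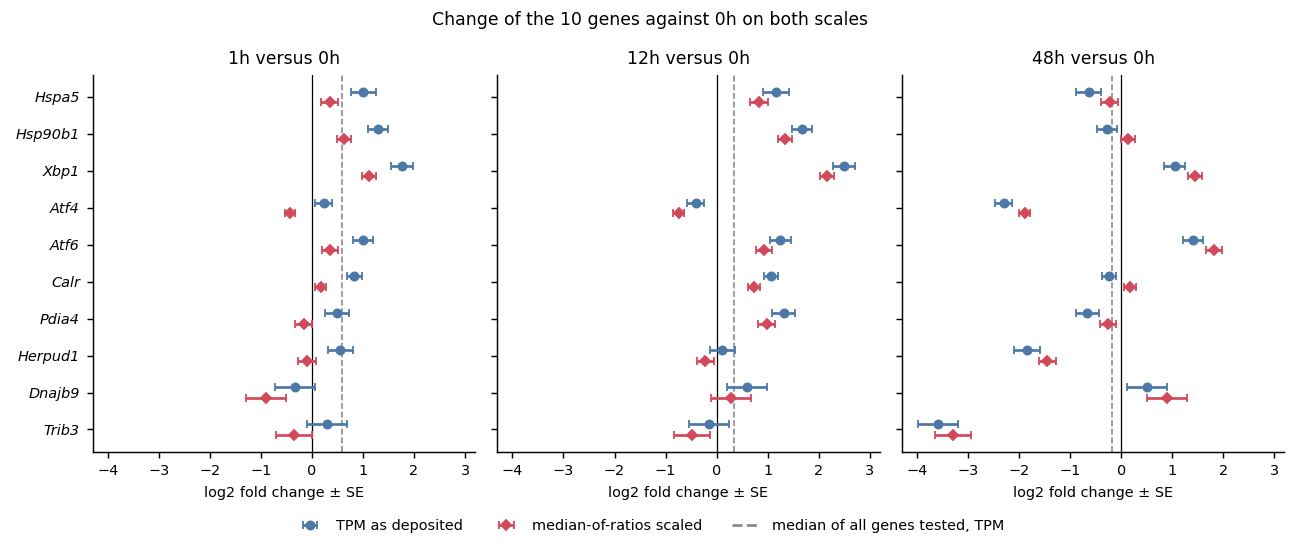
Log2 fold change against 0h (x axis, ± SE of the limma fit) of each of the 10 genes at 1h, 12h and 48h, on TPM as deposited (circles) and after median-of-ratios scaling (diamonds), with a dashed line at the median of all 16412 genes on TPM. At 12h the values of Hspa5, Hsp90b1, Xbp1, Atf6, Calr, Pdia4 and Dnajb9 are above 0 on both scales. At 48h those of Hspa5, Atf4, Pdia4, Herpud1 and Trib3 are below 0 on both. Dnajb9 at 12h and Hspa5 and Pdia4 at 48h were not called on both scales.

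Among other ER chaperones and folding enzymes, of 22 tested, 11 rose at 12h on both scales and none fell, where 16.0% and 7.82% of all genes did, and from 12h to 48h 11 fell and none rose, against 11.9% and 4.06%. The median log2 change at 12h was 1.04, or 0.71 after scaling. Ero1l, the oxidase that recharges protein disulfide isomerases, was at 11.6, 9.33 and 7.48 TPM at 0h and 47.8, 55.6 and 55.6 TPM at 12h, a rise of 2.49 ± 0.20 in log2 (adjusted p = 4.93e-06, scaled 2.16). It was already up at 1h, by 2.22 (adjusted p = 3.97e-05, scaled 1.56). No other of the 22 rose at 1h on both scales, where 5.42% of all genes did. Ero1lb, its paralog, rose by 1.82 at 12h (scaled 1.497) and by 1.97 at 48h (scaled 2.38). Manf, a secreted ER stress protein, was 1.10 higher at 1h on TPM (adjusted p = 0.00264) but not after scaling (0.44, adjusted p = 0.0953). At 12h Manf rose by 1.43 (scaled 1.10). At 48h against 0h 3 of the 22 rose and 5 fell, shares near the 15.9% and 21.9% of all genes. Serp1, a translocon-associated protein, was among the former (1.20, scaled 1.61). Creld2, an ER folding factor (-1.43, scaled -1.06), and Hyou1, a nucleotide exchange factor of BiP (-1.41, scaled -1.02), were among the latter. Hyou1 had risen at 12h (0.95, scaled 0.61).

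Of the genes of ER-associated degradation, Edem1 had the largest rise at each time. Of 18 tested, 8 rose at 12h and none fell on both scales (all genes 16.0% and 7.82%), and at 48h against 0h 4 rose and 2 fell (all genes 15.9% and 21.9%). Edem1, which marks misfolded glycoproteins for removal, was at 6.96, 6.50 and 2.07 TPM at 0h, 32.1, 28.5 and 21.1 TPM at 1h, 49.5, 58.4 and 55.5 TPM at 12h and 45.5, 62.0 and 49.2 TPM at 48h. All later libraries were above all of 0h, with a log2 change of 2.53 after 1h that reached 3.55 (12h) and 3.48 (48h), and 1.87, 3.21 and 3.89 after scaling. Edem3 rose at 1h by 1.29 (scaled 0.67), Derl1, part of the exit channel, at 12h by 1.97 (scaled 1.64), and Os9, a lectin of the pathway, at 48h by 0.95 (scaled 1.36). Syvn1, the ubiquitin ligase (-1.27, scaled -0.86), and Vcp, the ATPase that extracts substrates (-1.07, scaled -0.66), fell at 48h.

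Of 18 ATF4 targets tested, 9 fell at 12h and 3 rose on both scales, where 7.82% and 16.0% of all genes did, while Atf4 itself was called lower at 12h only after scaling. At 48h 11 fell and 1 rose, against 21.9% and 15.9%, with a median log2 change of -2.50 on TPM and -2.13 after scaling. Shmt2, a mitochondrial enzyme of serine metabolism, was at 54.8, 51.6 and 51.3 TPM at 0h and 0.60, 0.82 and 1.61 TPM at 48h, a log2 change of -5.67 ± 0.26 (adjusted p = 2.23e-08, scaled -5.31). Cth, which makes cysteine, went from 5.17, 4.10 and 5.56 TPM at 0h to 0.07, 0.16 and 0.24 TPM at 48h (-4.34, scaled -4.14). Other targets rose. Slc7a5, a transporter of large amino acids, rose from a 0h mean of 28.0 TPM to 93.6 TPM (1h) and 136 TPM (12h), by 1.74 and 2.26 in log2 (scaled 1.08 and 1.92). Nupr1, a stress-induced chromatin protein, rose at 12h by 1.88 (scaled 1.55). Ppp1r15a, which reverses the PERK signal, fell at 1h by 1.46 on the log2 scale (adjusted p = 0.000145, scaled -2.09) and was lower at 12h too (-1.12, scaled -1.45). Gpt2, an alanine aminotransferase, fell at 12h (-1.28, scaled -1.61). Cebpg, a partner of ATF4, was 1.18 higher at 1h on TPM but was not called after scaling (adjusted p = 0.111).

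Of the 9 stress sensors and factors tested, 2 rose at 12h and, at 48h, 3 rose and 1 fell on both scales, where all genes had 16.0% rising at 12h and 15.9% rising and 21.9% falling at 48h. Ern1, the IRE1 sensor, was at 0.30, 0.58 and 0.51 TPM at 0h and 5.21, 5.53 and 6.55 TPM at 12h, a rise of 3.41 ± 0.23 in log2 (adjusted p = 1.4e-06, scaled 3.09), and was up at 48h by 2.41 (scaled 2.82). At 1h it was 1.34 higher on TPM (adjusted p = 0.00253) but was not called after scaling (adjusted p = 0.0846). Atf3, a stress-induced factor, rose by 1.68 at 12h (scaled 1.36) and 2.92 at 48h (scaled 3.33). Atf6b, the relative of Atf6, fell at 48h (-1.27, scaled -0.87), and Mbtps1, the protease that cuts ATF6, was -1.04 on TPM at 48h but was not called after scaling (-0.64, adjusted p = 0.0808). Ddit3 also rose at 48h (0.93, scaled 1.34), but a second row carries its name, so its value is uncertain.

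Of the translocon and signal peptidase genes, 5 of 14 tested rose at 12h and 7 fell from 12h to 48h on both scales, against 16.0% and 11.9% of all genes. Spcs2, a signal peptidase subunit, rose at 12h by 1.73 (adjusted p = 9.55e-05, scaled 1.39), whereas Sec61g, of the translocon, was called on TPM but not after scaling (1.77, adjusted p = 0.057). At 1h Spcs2 (0.90, scaled 0.24) and Sec62 (0.82, scaled 0.17) were called on TPM only. At 48h 3 of the 14 fell, near the 21.9% of all genes, with Sec61b at -1.86 (scaled -1.46) and Sec11c at -1.48 (scaled -1.08). Chaperones outside the ER were taken as a separate list. Of 13 cytosolic and mitochondrial chaperones, none rose and 3 fell at 12h, and none rose and 8 fell at 48h on both scales, where 7.82% (12h) and 21.9% (48h) of all genes fell. Hspd1, the mitochondrial chaperonin, was at 56.1, 39.6 and 30.9 TPM at 0h and 3.66, 4.76 and 2.90 TPM at 48h (-3.43, scaled -3.03), and Trap1, the mitochondrial Hsp90, fell by 2.58 on the log2 scale (scaled -2.19). At 1h Hspa1b (1.53, scaled 0.91) and Hsf1 (1.11, scaled 0.46) were called on TPM only.

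**Figure D3:**
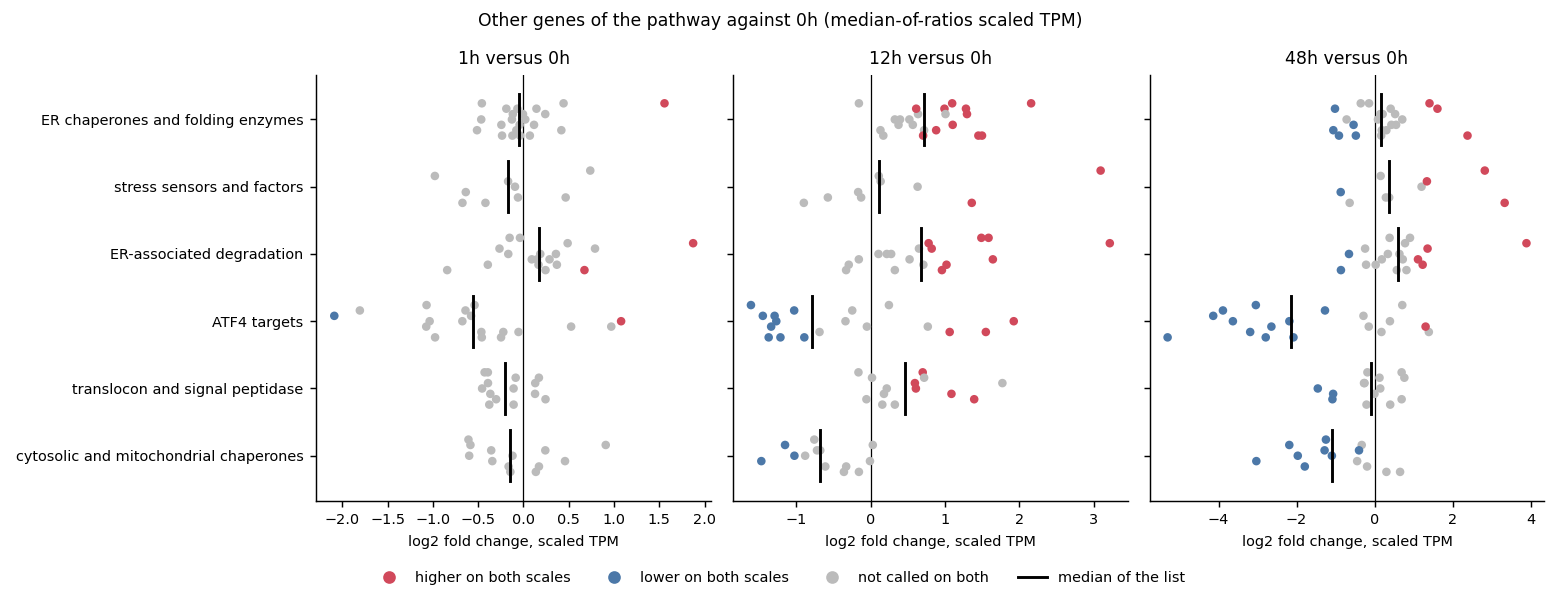
Log2 fold change against 0h after median-of-ratios scaling (x axis) of every tested gene of 6 lists (rows), 1 point per gene, coloured where called on both TPM and scaled TPM, with a black line at the median of the list. ER chaperones and degradation genes lie mainly to the right at 12h, and ATF4 targets and chaperones outside the ER to the left at 48h.

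Plasma cell markers were checked because Xbp1 is one of them. The 7 markers summed to 33.2 to 39.2 TPM at 0h and 9.75 to 17.1 TPM at 48h, and Tnfrsf17 was at 0 in every library. Of 5 tested, Sdc1 and Xbp1 rose and Mzb1 fell at 12h, where 16.0% of all genes rose and 7.82% fell on both scales. At 48h Prdm1, Sdc1 and Xbp1 were called higher and Mzb1 lower on both scales, against 15.9% and 21.9% of all genes. Prdm1 had means of 0.0233 (0h), 0.0267 (1h), 0.14 (12h) and 0.26 TPM (48h). It passed the filter of 0.1 TPM only through the later groups, so its call is no evidence of a rise. Mzb1 had a mean of 30.1 TPM at 0h and 2.55 TPM at 48h, most of the change in the sum. Jchain was at 0 in all 0h libraries.

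The genes most alike in time course were taken by Pearson r over the 12 libraries on scaled log2 values, among 9330 genes of at least 1 TPM, as a description, since the 12 libraries form 4 groups of 3. Atf4 was nearest to Naca, Spry4 and Phgdh, all with r of at least 0.990, and Phgdh, of serine synthesis, is itself on the ATF4 target list. Xbp1 was nearest to Tmem63a, Tpm4 and Tgfbi, Atf6 to Dock2, Secisbp2l and Dock10, Herpud1 to Tacc3 and Cks2, and Trib3 to Nomo1, Tkt and Ctbp1. The chaperones had their own nearest genes, Gm43305, Gm42427 and Uap1 for Hspa5, Dstn, Gys1 and Ercc6 for Hsp90b1, Tspan14, Map2k3 and Lbr for Calr and Slc20a1, Nfkbid and Gm24519 for Pdia4. Dnajb9 had the lowest best r of the 10, 0.935 with Spata6, ahead of Fut8 and Prkab1.

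PCHi-C lists the fragments that contact a captured promoter fragment (bait), here counted over baits that hold a start site of the gene. Each list merged 2 replicates, so the counts carry no replicate error and were not tested. Over 16521 protein-coding genes with a bait the median was 5 contacts at each time, and 41.8% had more and 43.0% fewer at 48h than at 0h. Of the 10 members, 4 had more and 6 fewer. Xbp1 had 0, 2, 5 and 6 contacts in time order, and the start sites of Urgcp, Polm and Mrps24 were among its later partners. Pdia4 went from 8 to 5, 1 and 1 contacts, from a bait of only 464 bp, and Calr from 25 to 27, 17 and 10. Among the partners of Calr at 0h and not at 48h was the fragment with the start sites of Lyl1, Nfix and Trmt1. Hspa5 had 19, 11, 14 and 11 contacts and Dnajb9 13, 9, 4 and 9.

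Hsp90b1 had 31, 47, 39 and 40 contacts, more at each later time than at 0h. Atf4 had 21, 20, 22 and 23 contacts, Herpud1 16, 14, 15 and 14, and Trib3 4, 5, 3 and 3. The RNA of Atf4, Herpud1 and Trib3 fell at 48h, and a link to their contacts was not tested. Atf6 had 35, 38, 31 and 39 contacts, and its partners included the start sites of the Fc receptor genes Fcgr4 in every list and Fcgr2b in all but 0h. Several baits also hold the start site of another gene, such as Ttc41 for Hsp90b1 and Rps19bp1 for Atf4, whose contacts cannot be separated. Of the 172 contacts of the members at 0h, 95 were listed again at 48h, or 55.2% (95% Wilson interval 47.8 to 62.5, counting error only), where 55.9% of all 0h interactions were.

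**Figure D4:**
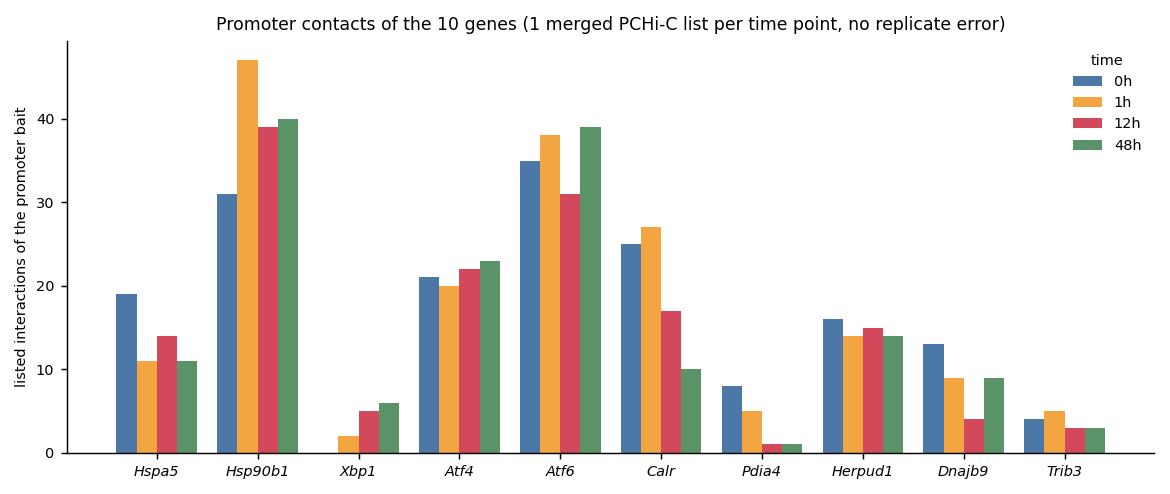
Number of listed PCHi-C interactions (y axis, from 0) of the promoter baits of the 10 genes (x axis) at 0h, 1h, 12h and 48h (bars), from 1 merged list per time point without replicate error. Xbp1 goes from 0 to 6 and Calr from 25 to 10, while Atf4 stays between 20 and 23.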

How the data were processed

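RNA-seq of 12 libraries (3 per time point) and PCHi-C of 4 time points were used. Per the labels and the study's methods, the authors merged technical replicates, trimmed reads with Trim Galore 0.6.2, mapped them to mm10 with HISAT2 2.1.0 and deposited TPM from RSEM. TPM give no counts, so the authors' count test was not repeated. PCHi-C interactions were called by the authors with CHiCAGO on 2 merged replicates. In the 0h list they deposited a CHiCAGO score. The later lists instead carry deposited whole numbers that were read as counts of read pairs, a unit not given in the sources used here. These numbers entered no result except a 0h score alternative. The number of columns of per-sample values left out was 0.

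Genes with a mean of at least 0.1 TPM (16412) entered a limma fit (3.58.1, R 4.3.3) of log2(TPM + 0.1), in 1 model of the 4 time points with a mean-variance trend and Benjamini-Hochberg adjustment, called at an adjusted p under 0.05. The model was tested on simulated data of 16412 genes for 48h against 0h, with 100 genes changed by a log2 size of 1 and 100 by 2. It recovered 21% of the former and 82% of the latter, and 6.36% of its calls were false. These shares hold for that number of changed genes. In the measured libraries 2611 genes were called higher and 4466 lower on TPM at 48h against 0h. Recovery and false calls with that many changes were not tested. A gene not called may still have changed by a log2 of 1. Median-of-ratios factors came from genes above 0 in every library. Contacts and motifs were counted with Python 3.11.15 and pandas 2.3.3, on GENCODE M21 and RefSeq GRCm38.p6 positions. The members and gene lists were chosen with earlier results of these data known. Named are all members and, per other list and comparison with 0h, up to 2 genes of largest rise and 2 of largest fall among those called on TPM with a mean of at least 1 TPM, plus the 3 nearest genes per member, of which 1 is not reported here. Ddit3, genes with values in the contact lists, marker genes, overlapping genes and genes sharing a bait were named outside this rule, after their values were seen. Alternatives varied the scaling, pseudocount, filter, trend, replicate block, libraries and threshold.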

Additional observations from a re-analysis of the deposited data

Results flagged for a closer look

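The effect against 0h differed between time points for most members, by the limma test of the difference itself on log2(TPM + 0.1) (adjusted p under 0.05). The effect at 48h minus that at 12h was -1.80 for Hspa5, -1.95 for Hsp90b1, -1.45 for Xbp1, -1.89 for Atf4, -1.30 for Calr, -1.98 for Pdia4, -1.96 for Herpud1 and -3.43 for Trib3 (8 of the 10 members). In all of them every 48h library was below every 12h library, and all 8 were also called after median-of-ratios scaling. The effect at 12h minus that at 1h was 0.73 for Xbp1 and 0.83 for Pdia4, both also called after scaling, and -0.63 for Atf4, which was not called after scaling (adjusted p = 0.059).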

How the results depend on the processing

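Of the members' log2 changes under each alternative, 1174 kept direction and side of the threshold, 52 lost the call, 31 gained it and 43 changed sign. The 6 members higher at 12h against 0h, the 2 higher at 48h and the 8 lower at 48h than at 12h had the same count when any 1 library was left out. Leaving out 1 library gave a range of 4 to 5 members called higher (1h against 0h), of 3 to 5 called lower (48h against 0h), and, for 12h against 1h, of 0 to 3 called higher and 0 to 1 called lower. The count of 2 higher at 12h against 1h went to 0 without 1h replicate 1, 1h replicate 3 or 12h replicate 3 and to 1 without 12h replicate 1 or 2. The 1 lower went to 0 without 1h replicate 1, 1h replicate 2 or 12h replicate 1.

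Members higher at 1h numbered 2 with quantile normalization or median-of-ratios scaling and 1 when rescaled without the 20 most abundant genes. Members lower at 1h numbered 1 with median-of-ratios scaling, and members lower at 12h against 0h 1 with all 3 scalings. At 12h against 1h, members higher numbered 5 with either of these scalings, 1 with no trend and 0 beyond a log2 change of 1, and members lower 0 with all 3 scalings and beyond a log2 change of 1. At 48h against 12h 1 was higher with either of the same scalings.

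Changes of sign under median-of-ratios scaling, quantile normalization and rescaling without the 20 most abundant genes, in that order, were -0.43, -0.25 and -0.26 for Atf4 and -0.36, -0.28 and -0.19 for Trib3 at 1h, -0.22, -0.16 and -0.098 for Herpud1 at 12h, 0.13, 0.070 and 0.056 for Hsp90b1 and 0.18, 0.23 and 0.10 for Calr at 48h against 0h, and 0.61, 0.62 and 0.43 for Dnajb9 at 48h against 12h. At 1h Pdia4 changed to -0.16 and -0.026 with the first 2 of these scalings and Herpud1 to -0.099 with the first. When 1 library was left out, Herpud1 at 12h ranged from -0.056 (without 12h replicate 3) to 0.27, Hspa5 at 12h against 1h from -0.076 (without 12h replicate 3) to 0.32, Trib3 at 12h from -0.55 to 0.16 (without 12h replicate 1), and Dnajb9 at 48h against 12h reached 0.18 (without 12h replicate 1). None of these was called except Atf4 after median-of-ratios scaling (adjusted p = 0.0221), and the causes were not tested.

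The labels do not say that a replicate number marks a shared culture or day, and not every same-number pair of libraries correlated, so the samples were not treated as paired. Of 18 same-number pairs of libraries, 7 had a correlation of deviations above 0.1 (range -0.012 to 0.26), and 7 of the 12 libraries matched best with their own number. Of the 6 pairs of replicate 3 libraries 5 were above 0.1, so the replicate 3 libraries deviated together. All 24 pairs of a replicate 3 with a replicate 1 or 2 library were below 0. Deviations were taken from the mean of the 3 libraries of a time point and sum to 0. The sign of these 24 pairs is therefore tied to that of the replicate 3 pairs and adds no separate evidence. The labels also number their columns apart from the others. With the replicate block the counts were those without it, 5 higher at 1h, 6 at 12h and 2 at 48h. Alternatives chosen after seeing the data were the block with median-of-ratios scaling and leaving out replicate 3 throughout, with and without that scaling. With the block and the scaling, 2 members were higher and 1 lower at 1h, 1 lower at 12h against 0h, 6 higher at 12h against 1h and 1 higher at 48h against 12h, and the sign changes had the values given above for median-of-ratios scaling. Without replicate 3 and with scaling, 2 were higher at 1h, 1 lower at 12h against 0h, and, for 12h against 1h, 5 higher and 0 lower, and 1 higher at 48h against 12h, and values of changed sign were -0.39 for Atf4, -0.28 for Pdia4, -0.042 for Herpud1 and -0.54 for Trib3 at 1h, -0.30 for Herpud1 at 12h, 0.21 for Hsp90b1 and 0.25 for Calr at 48h and 0.48 for Dnajb9 at 48h against 12h. Without replicate 3 on TPM, 1 was lower at 12h, 0 were higher at 12h against 1h, and Herpud1 at 12h was -0.14 and Hspa5 at 12h against 1h -0.17.

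The share of the members' 0h contacts listed again at 48h was 82.6% when a fragment within 10 kb counted as the same. It was 81.4% among contacts with a score of at least 10, and 55.9% within 1 Mb. The share over all 0h interactions was not taken under these rules, so the values do not set the members apart from other promoters. Depth limits for RNA could not be set, because TPM keep none.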
